A study of Mus musculus with 4 samples.

Results

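The proteoglycans examined here are 10 mouse genes: the syndecans Sdc1, Sdc2, Sdc3 and Sdc4, the glypican Gpc1, the transmembrane proteoglycan Cspg4, the basement membrane proteoglycan Hspg2, and the small leucine-rich proteoglycans Dcn, Bgn and Lum. Every probe set whose only gene symbol in the platform annotation is one of these was taken, which gave 24 probe sets for the 10 genes, out of 34945 probe sets for 18193 genes with a single symbol. The genes were chosen by name, but with earlier results of these data known. NIH/3T3 cells, an immortalised line of mouse embryo fibroblasts, were placed, without serum, above a porous membrane whose lower face alone bore fibronectin. Over 1 h they pushed protrusions through the pores, after which all samples were fixed with 0.3% formaldehyde for 10 min. Their crosslinks were later undone by heating all extracts to 70 °C for 45 min. Pseudopodia were collected from the lower face (2 arrays) and cell bodies from the upper face (2 arrays), and total RNA of each sample was read on 1 Mouse430_2 expression array. All 4 samples come from this line and all were exposed to fibronectin, so no sample without that stimulus enters the comparison. The design text describes the samples as independent, without saying whether they came from separate cultures. A p-value here rests on the spread between the 2 samples of each compartment, which may be technical copies, and on a prior spread taken from all tested genes.

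A proteoglycan is a core protein that carries long sulfated sugar chains, built onto it in the Golgi after the protein has entered the endoplasmic reticulum. Syndecans span the plasma membrane with heparan sulfate chains outside and a short tail inside that binds PDZ proteins, and Sdc4 acts with integrins as a receptor for fibronectin in the focal adhesions of fibroblasts. Glypicans are held on the surface by a lipid anchor, whereas perlecan, decorin, biglycan and lumican are secreted into the matrix. Each of these mRNAs encodes a protein made at the endoplasmic reticulum. The comparison asks how the level of these messages differed between protrusion and cell body.

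Of the 10 genes, 3 fell in pseudopodia, 0 rose, 6 did not pass the test and Lum could not be tested. The genes that fell were Cspg4, 3.44-fold higher in cell bodies, Gpc1, 2.31-fold higher there, and Sdc1, 2.25-fold higher there. Each gene was represented by its brightest probe set over the 4 arrays, and genes whose mean lay under an intensity of 42.0 were left out. This kept 9 of the 10 proteoglycans among 11320 genes tested with limma, with Benjamini-Hochberg adjustment over all of them at a threshold of 0.05. In the same fit 14.6% of all genes were called, 8.69% lower and 5.92% higher in pseudopodia, against which 3 of 9 proteoglycans is a larger share of falls, a difference that was not tested. The median difference of the 9 genes was -0.32 on the log2(intensity + 1) scale, beside -0.0020 over all genes. It was -0.67 without pseudopodia replicate 2, -0.58 with the probe sets of a gene averaged, and otherwise -0.40 to -0.23 with 1 array left out. With any 1 array left out, limma called 0 of the 9 genes, and 3 to 4 had an unadjusted p under 0.05. With no filter on low values it called 0 of 10, with 4 at an unadjusted p under 0.05.

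The values are intensities with a floor of exactly 20 on each array, shared by 30.5% to 34.8% of probe sets, and array medians ran from 40.5 to 45.6. Of 9 RNAs known to gather in fibroblast protrusions, 8 rose in pseudopodia, beside 5.92% of all genes. The 9 had a summed intensity of 27241 and 27382 in pseudopodia against 14372 and 14035 in cell bodies. This list was chosen with earlier results of these data known, so it is not an independent check of the labels. The 8 fibroblast markers summed to 40475 and 40416 in pseudopodia and to 59711 and 54667 in cell bodies, with Thy1 at the floor on all 4 arrays. Of the 7 fibroblast markers tested, 4 fell in pseudopodia and 0 rose, beside 8.69% and 5.92% of all genes. Of the markers of other cell types, leukocyte genes summed to 251 and 272 against 266 and 264 (Itgam at the floor on all arrays), and epithelial genes to 660 and 677 against 1004 and 754 (Krt18 at the floor). Epcam, the brightest epithelial gene, read 248 and 348 in pseudopodia against 604 and 471. Of the 4 epithelial genes tested, 2 had differences below 0 and 2 above 0, and 0 were called. The 4 endothelial genes summed to 99.9 and 180 against 98.2 and 101 (Pecam1 at the floor), and the 3 adipocyte genes to 60.0 and 76.6 against 60.7 and 60.0 (Cidec at the floor). For the Actb control, 3′ signal over 5′ signal had a log2 value of 0.56 and 0.65 in pseudopodia and 0.37 and 0.36 in cell bodies, a mean difference of 0.24, while the mean differences for the Gapdh and pyruvate carboxylase controls were 0.026 and 0.069. Both pseudopodia arrays were scanned before both cell body arrays, so scan order and compartment cannot be told apart. The part of the epithelial markers and of RNA length in the differences below was not tested. The arrays read RNA of many cells together, so fewer cells with a message and less of it per cell cannot be told apart. Nor can protrusions that lack a message and protrusions that hold less of it. Since array medians were alike, a fall here is a lower level relative to the other RNAs of a sample. Absolute amounts were not measured.

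Sdc1, a syndecan that binds growth factors and matrix through its heparan sulfate, was lower in pseudopodia at each of its 4 probe sets. The brightest, 1437279_x_at, read 1666 and 2090 in pseudopodia and 4198 and 4191 in cell bodies. The cell body arrays nearly coincided, and both pseudopodia arrays lay far beneath them. The log2 difference was -1.17 (SE 0.16, limma adjusted p = 0.0194, n = 2 per compartment), which places Sdc1 among the lowest genes, with only 4.25% of tested genes at a lower difference. The probe set 1415943_at read 718 and 847 against 2329 and 2273, a 2.95-fold difference. The probe set 1415944_at read 131 and 192 against 511 and 561, a 3.36-fold difference, and 1448158_at read 72.6 and 70.7 against 199 and 167, a 2.53-fold difference. Thus all 4 probe sets of Sdc1 were lower in pseudopodia without overlap between compartments, as were 30.9% of all tested probe sets. The 4 were read from the same RNA on the same arrays, so they are not separate samples. With every probe set above the filter tested on its own, the limma adjusted p of the 4 ran from 0.0241 to 0.0287. Leaving out an array kept the sign at the brightest probe set and raised its adjusted p, to 0.0601 at the least (pseudopodia replicate 2 left out) and 0.0882 at the most (cell body replicate 1 left out).

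**Figure D1:**
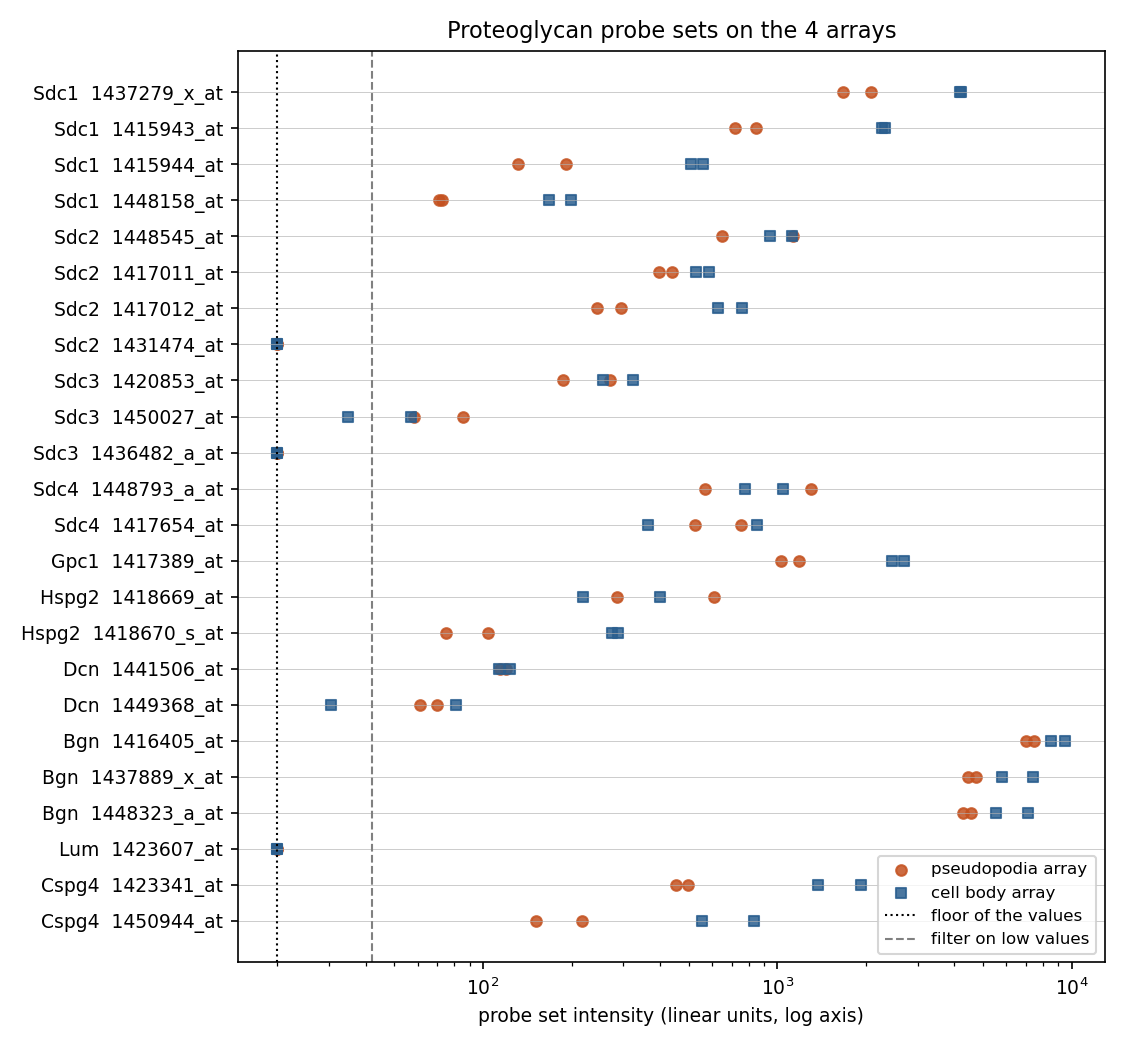
Intensity of each of the 24 proteoglycan probe sets on each array (log axis, linear intensity units), with circles for the 2 pseudopodia arrays and squares for the 2 cell body arrays. Sdc1, Gpc1 and Cspg4 show circles to the left of squares in every row, while 3 probe sets, 1 each for Sdc2, Sdc3 and Lum, lie at the floor of 20 on all arrays.

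The other syndecans did not pass the test at their brightest probe sets, and their probe sets disagreed. Sdc2, which is abundant in mesenchymal cells, read 647 and 1134 in pseudopodia and 1126 and 948 in cell bodies at 1448545_at. One pseudopodia array exceeded both cell body arrays and the other lay well under them, and the log2 difference of -0.27 (SE 0.30, limma adjusted p = 0.599, n = 2) was within that spread. Without pseudopodia replicate 1 it was 0.13. At 1417012_at, however, the same gene read 295 and 244 in pseudopodia and 761 and 627 in cell bodies, a log2 difference of -1.36 (SE 0.19, adjusted p = 0.0269 in the limma fit of single probe sets). At 1417011_at it read 396 and 439 against 585 and 529, with no overlap and a log2 difference of -0.41 (SE 0.15), which did not pass that fit (adjusted p = 0.160). All 3 measured probe sets of Sdc2 thus had differences below 0, of sizes from 1.21-fold to 2.57-fold, and the fourth, 1431474_at, lay at the floor on all arrays. When the log2 values of the probe sets above the filter were averaged, Sdc2 had a difference of -0.68 (SE 0.17, limma adjusted p = 0.0527).

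Sdc3, the syndecan best known from nerve and muscle, was dimmer and its probe sets pointed in opposite directions. Its brightest probe set read 270 and 187 in pseudopodia and 324 and 256 in cell bodies, so the compartments overlapped (log2 difference -0.35, SE 0.24, limma adjusted p = 0.376, n = 2). Without pseudopodia replicate 1 it was -0.62, without pseudopodia replicate 2 it was -0.092, and leaving out cell body replicate 1 gave -0.19. The probe set 1450027_at read 58.3 and 85.4 against 34.9 and 57.0, the reverse order with no overlap, though the margin between 58.3 and 57.0 was small and 1 of these values lay under the filter intensity. Its difference of 0.65 (SE 0.32) did not pass the limma fit of single probe sets (adjusted p = 0.259). The third probe set of Sdc3 was at the floor throughout.

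Sdc4, the syndecan of focal adhesions, gave no measurable difference between the compartments at this precision. The probe set 1448793_a_at read 568 and 1297 in pseudopodia and 776 and 1047 in cell bodies, so that the pseudopodia arrays lay on either side of both cell body arrays. The log2 difference was -0.071 with an SE of 0.42 (limma adjusted p = 0.932, n = 2). The probe set 1417654_at read 527 and 754 against 365 and 851, and here the cell body arrays lay outside both pseudopodia arrays (log2 difference 0.18, SE 0.45). The arrays of one compartment differed by up to 1.22 on the log2 scale at these probe sets, which is as large as the differences called for Sdc1 and Gpc1. The sign of the Sdc4 difference also turned with the setting: it was 0.016 with quantile normalization.

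Gpc1, a glypican that presents heparin-binding growth factors, read 1033 and 1187 in pseudopodia and 2688 and 2445 in cell bodies at its single probe set. The arrays of each compartment lay close together and the compartments were far apart. The log2 difference was -1.21 (SE 0.15, limma adjusted p = 0.0176, n = 2), and 3.79% of tested genes had a lower one. With 1 array left out it lay between -1.31 and -1.11, with an adjusted p of 0.0605 (without pseudopodia replicate 2) to 0.0812 (without pseudopodia replicate 1).

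Cspg4, also called NG2, is a large transmembrane proteoglycan that carries chondroitin sulfate and binds collagen VI, and it had the largest difference of the 9 tested proteoglycans. At 1423341_at it read 453 and 496 in pseudopodia and 1932 and 1379 in cell bodies. Both pseudopodia arrays agreed closely, and the lower cell body array was still far above them. The log2 difference was -1.78 (SE 0.20, limma adjusted p = 0.0166, n = 2), with only 0.512% of tested genes lower. Its other probe set, 1450944_at, read 151 and 217 against 833 and 556, a 3.74-fold difference (adjusted p = 0.0296 in the limma fit of single probe sets). Leaving out an array gave differences of -2.03 to -1.54 at the brighter probe set, and an adjusted p of 0.0605 (without pseudopodia replicate 2) to 0.0812 (without pseudopodia replicate 1).

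Among the matrix proteoglycans no gene passed the test at its brightest probe set. Hspg2 encodes perlecan, the heparan sulfate proteoglycan of basement membranes, and its probe sets went apart. At 1418669_at, the brighter, Hspg2 read 285 and 609 in pseudopodia and 219 and 400 in cell bodies. The compartments overlapped, and the log2 difference of 0.49 (SE 0.46, limma adjusted p = 0.540, n = 2) was the only one above 0 among the 9 genes. At 1418670_s_at it read 75.0 and 104 against 287 and 274, which on the log2 scale is -1.66 (SE 0.21, adjusted p = 0.0246 in the limma fit of single probe sets). These cell body arrays lay close together and well above both pseudopodia arrays. Within each array, the log2 ratio of the first probe set to the second was 1.92 and 2.55 in pseudopodia and -0.39 and 0.55 in cell bodies. This ratio was taken for Hspg2 alone and restates the 2 differences above, so it adds no separate support. The direction for Hspg2 therefore depends on the probe set: averaged over both, its difference was -0.58 (SE 0.30, limma adjusted p = 0.257), and at the brighter one it was -0.058 without pseudopodia replicate 2. The stretch of the transcript that each probe set reads was not analysed here.

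Bgn, the secreted small leucine-rich proteoglycan biglycan, read lower in pseudopodia at all 3 of its probe sets, by smaller amounts. At 1416405_at it read 7454 and 7003 in pseudopodia and 9525 and 8484 in cell bodies, with no overlap. The log2 difference was -0.32 (SE 0.14, n = 2) and did not pass the test (limma adjusted p = 0.203). Of the alternatives run, it passed only when the prior variance was allowed to follow intensity (adjusted p = 0.0142). The highest intensity of any probe set on these arrays was 13766 to 15025, and whether a difference is compressed so near the top of the scale was not tested. The probe set 1437889_x_at read 4750 and 4460 against 7387 and 5806, and 1448323_a_at read 4568 and 4291 against 7118 and 5542. These followed each other closely on every array, and both were 1.42-fold higher in cell bodies (adjusted p = 0.147 and 0.154 in the limma fit of single probe sets).

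Dcn and Lum, which encode the collagen-binding proteoglycans decorin and lumican, gave little signal. Dcn read 120 and 114 in pseudopodia and 124 and 113 in cell bodies at 1441506_at, values that interleaved (log2 difference -0.010, SE 0.13, limma adjusted p = 0.970, n = 2). At 1449368_at the cell body arrays, at 81.0 and 30.4, lay on either side of the pseudopodia arrays, at 60.9 and 69.9. Lum lay at the floor of 20 on all 4 arrays at its only probe set, so its level in either compartment is known only as an upper bound and no fold can be given. In the RefSeq gene order of GRCm38.p6, Lum, Kera and Epyc, all small leucine-rich proteoglycan genes, follow Dcn on the same chromosome, and of these 4 neighbours Dcn alone passed the filter.

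Read probe set by probe set, 21 of the 24 passed the filter on low values. Of these, 9 fell in pseudopodia and 0 rose, in a limma fit of all 22519 probe sets that called 7.44% lower and 11.7% in all. The 9 were the 4 of Sdc1, both of Cspg4, that of Gpc1, 1 of the 3 tested for Sdc2 and 1 of the 2 for Hspg2. The compartments did not overlap at 13 of the 21 with pseudopodia lower and at 1 with pseudopodia higher, beside 59.6% of all tested probe sets in either direction and 30.9% with pseudopodia lower. The median difference was -0.50, beside -0.0038 over all tested probe sets. Among the 14 tested probe sets of cell surface members 8 fell, with a median difference of -1.19, and among the 7 of matrix members 1 fell, with a median of -0.32. Probe sets of 1 gene were read from the same RNA on the same arrays, so they are not separate samples, and the difference between surface and matrix members was not tested. Sdc1, Cspg4, Bgn and Sdc2 had probe sets that pointed the same way, whereas Sdc3, Sdc4 and Hspg2 had probe sets with differences on both sides of 0, as had Dcn.

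**Figure D2:**
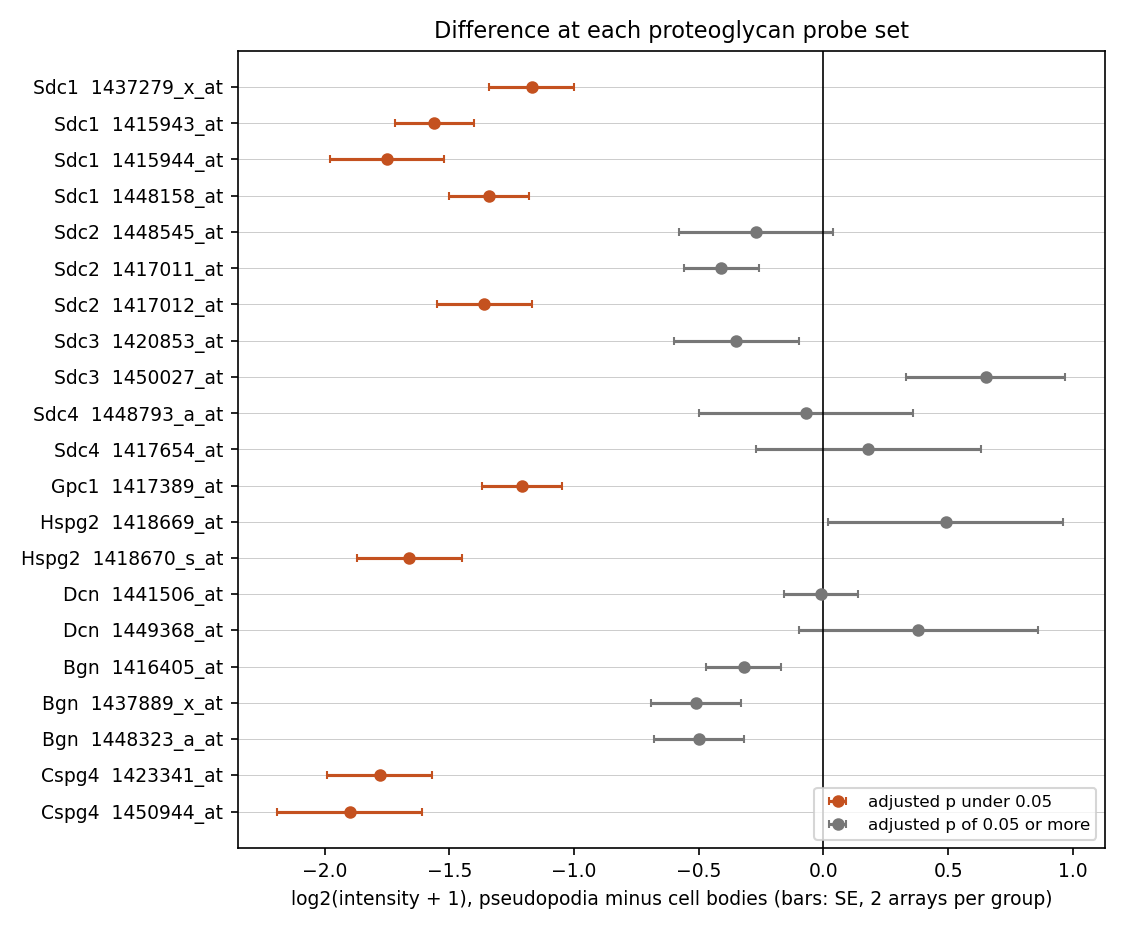
Difference between compartments at each of the 21 tested proteoglycan probe sets, as log2(intensity + 1) in pseudopodia minus cell bodies, with bars for the SE from the limma fit of single probe sets (2 arrays per compartment). The 9 coloured probe sets, from -1.90 to -1.17, had an adjusted p under 0.05, and the widest bars belong to Dcn, Hspg2 and Sdc4.

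**Figure D3:**
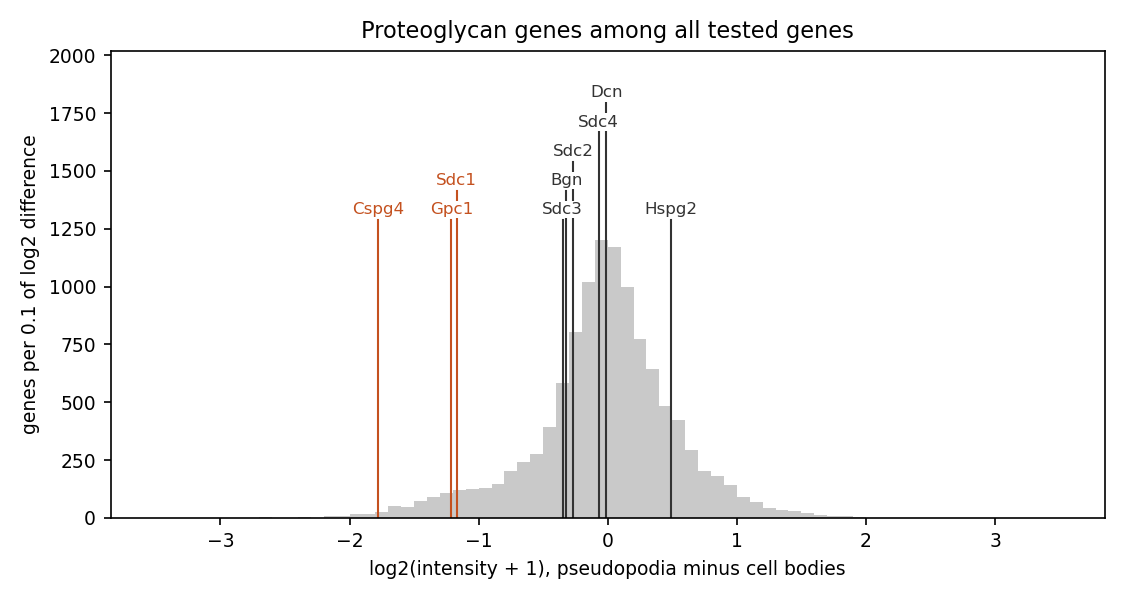
Histogram of the log2 difference (pseudopodia minus cell bodies) of all 11320 tested genes, with a line for each of the 9 tested proteoglycans at its brightest probe set. Cspg4, Gpc1 and Sdc1 (coloured) lie in the lower tail at -1.78, -1.21 and -1.17, and the other 6 lie between -0.35 and 0.49; the heights of the lines only separate the names.

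Of 30 further proteoglycan core proteins listed, 15 were tested, 3 fell and 0 rose, beside 8.69% lower and 5.92% higher over all genes, with a median difference of -0.47. Agrin (Agrn), a heparan sulfate proteoglycan of basement membranes, read 270 and 350 in pseudopodia and 986 and 695 in cell bodies, a log2 difference of -1.43 (SE 0.24, limma adjusted p = 0.0254). Thrombomodulin (Thbd), a membrane receptor of thrombin, fell by 1.40 on the log2 scale and betaglycan (Tgfbr3), a membrane coreceptor of TGF-beta, fell by 1.25. The hyaluronan receptor Cd44, the brightest of this list, had a difference of -0.83 (SE 0.22, adjusted p = 0.0723). It passed with the stricter filter (0.0349), median centring (0.0234), a replicate block (0.0321), the prior that follows intensity (0.00523) and averaged probe sets (0.0190). It did not pass with quantile normalization (0.122), a pseudocount of 16 (0.0550) or no filter (0.267). Nor did it without probe sets that can match several transcripts (0.0703). The list's count of 3 called genes was 5 with a stricter filter and 7 with median centring, 1 of which then rose.

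Several enzymes that build the sugar chains fell in pseudopodia. As background, 8.69% of all genes fell. Of 6 tested enzymes of the linkage region, which joins chain to core protein, 3 fell: the xylosyltransferase Xylt2 by 1.58 on the log2 scale (limma adjusted p = 0.0478), the xylose phosphatase Pxylp1 by 1.20 and the galactosyltransferase B3galt6 by 0.65. The brightest, B4galt7, had a difference of -0.56 (adjusted p = 0.122). All 6 had no overlap between compartments with pseudopodia lower, as had 31.4% of all genes. Of 5 heparan sulfate chain polymerases and relatives, Ext2 fell by 1.22 and Extl3 fell by 1.14. Ext1 had a difference of -0.58 (limma adjusted p = 0.0544) and a second probe set at 1.18. Ext1 passed with the stricter filter (0.0237), a pseudocount of 16 (0.0430) and the prior that follows intensity (0.0101). It did not pass with quantile normalization (0.0788), median centring (0.0515), a replicate block (0.0539) or no filter (0.108). Nor did it without probe sets that can match several transcripts (0.0617).

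Of 7 tested genes that modify the heparan sulfate chain, 4 fell, beside 8.69% of all genes. The 2-O-sulfotransferase Hs2st1 fell by 1.25 on the log2 scale, from 834 and 915 in cell bodies to 380 and 353 in pseudopodia (limma adjusted p = 0.0166). Ndst2 fell by 1.15, the epimerase Glce by 1.11 and Hs6st1 by 0.91. Both other probe sets of Glce had differences above 0, of 0.70 and 0.88, so that its averaged value was 0.15. Of 12 tested genes of chondroitin and dermatan sulfate synthesis, 8 fell, beside 8.69% of all genes, with a median of -0.87. The sulfotransferase Chst12 read 694 and 488 in cell bodies and 176 and 169 in pseudopodia, a 3.36-fold difference (adjusted p = 0.0166), and Chst7, Chpf and Chst14 fell by 1.66, 1.63 and 1.52 on the log2 scale. The brightest, the chondroitin synthase Chsy1, fell by 0.93.

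Of 10 tested genes that supply precursors, 1 fell and 1 rose, shares near the 8.69% and 5.92% over all genes. Slc35d1, a nucleotide-sugar carrier of the endoplasmic reticulum, fell by 1.38 on the log2 scale, and Ugp2, the cytosolic enzyme that makes UDP-glucose, rose. Ugp2 read 1065 and 1089 in pseudopodia and 546 and 534 in cell bodies, a log2 difference of 0.99 (SE 0.13, limma adjusted p = 0.0178), and its 4 other tested probe sets had the same sign. The brightest, the cytosolic dehydrogenase Ugdh, had a difference of 0.090 (adjusted p = 0.707). This count of 2 was 4 with a stricter filter, with 2 in each direction.

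**Figure D4:**
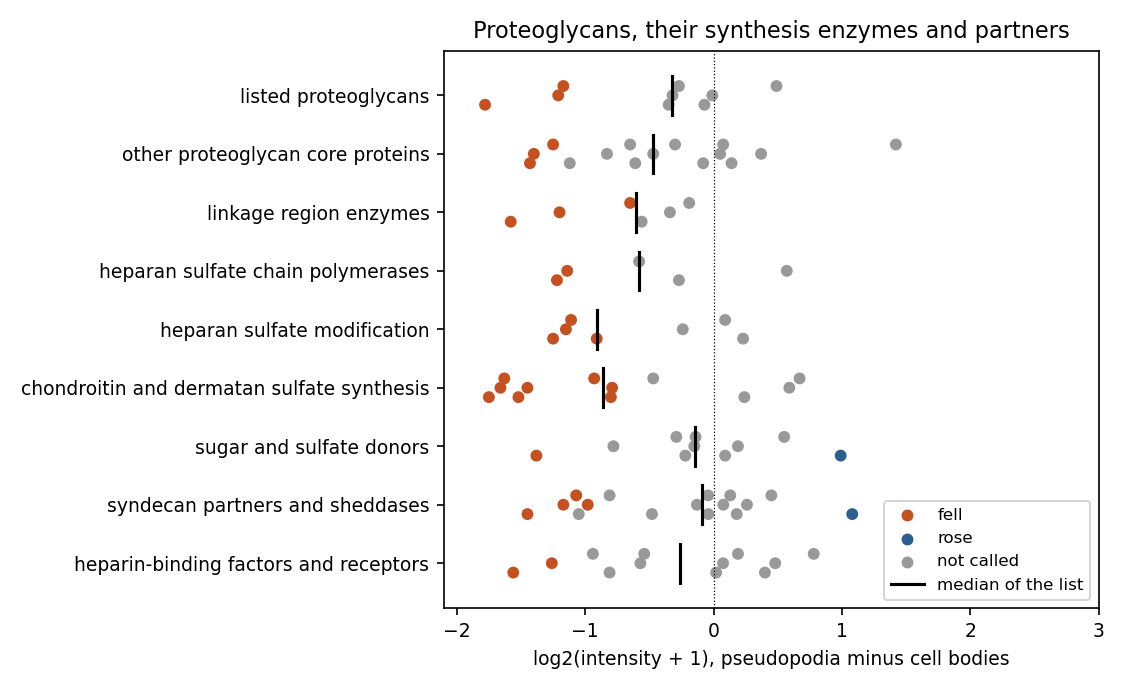
Log2 difference (pseudopodia minus cell bodies) of each tested gene in the listed proteoglycans and 8 related lists, 1 point per gene at its brightest probe set, with a bar at each median; vertical offsets only separate points. The medians run from -0.91 for heparan sulfate modification to -0.085 for syndecan partners and sheddases, and the called genes above 0 are Ugp2 and Cask.

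Of 16 tested partners of syndecans and proteases that cut proteoglycans, 4 fell and 1 rose, beside 8.69% and 5.92% over all genes. The proteases Bmp1, Adamts1 and Adam17 fell by 1.45, 1.17 and 1.07 on the log2 scale, and Mmp2, the brightest, fell by 0.98 (limma adjusted p = 0.0253). Cask, a cytosolic scaffold whose PDZ domain binds syndecan tails, read 260 and 351 in pseudopodia and 167 and 120 in cell bodies (log2 difference 1.08, adjusted p = 0.0473). Averaged over its probe sets, Cask had a difference of 0.067 (adjusted p = 0.820), and 1 of them stood at -1.05. Syntenin (Sdcbp), another cytosolic partner of the syndecan tail and named here after its values were seen, had a difference of 0.13 at its brightest probe set (adjusted p = 0.633). Its other probe sets had differences of 0.92 (adjusted p = 0.0354 in the limma fit of single probe sets) and 0.89 (0.0821). In the same list Mmp14, also not called (-0.81, limma adjusted p = 0.0586), had other probe sets at -2.48 and -1.47 (0.0241 and 0.0254 in the fit of single probe sets). The listed partners Gipc1 and Tiam1 stood at -0.041 and 0.076. Of the 16 genes, 10 had differences below 0 and 6 above 0. Of 12 heparin-binding factors and receptors tested, 2 fell: Fgfr1 by 1.56 and Vegfa by 1.26 on the log2 scale. A second probe set of Vegfa stood at -0.31 (adjusted p = 0.310 in the limma fit of single probe sets). Averaged over its probe sets, Vegfa had a difference of -0.78 (limma adjusted p = 0.0406). The brightest, Fgf7, had a difference of 0.78 (limma adjusted p = 0.0743) and a second probe set at -1.16. Fgf7 passed with the stricter filter (0.0361), median centring (0.0424), a replicate block (0.0300) and the prior that follows intensity (0.0135). It did not pass with a pseudocount of 16 (0.0579), quantile normalization (0.0573) or no filter (0.263). Nor did it without probe sets that can match several transcripts (0.0730). The Fgfr1 call was lost without probe sets that can match several transcripts (-0.98, adjusted p = 0.0598), and the list's count of 2 was 5 with median centring.

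Over all 8 lists 83 genes were tested, of which 27 fell and 2 rose, beside 8.69% and 5.92% over all genes, with a median difference of -0.47. With any 1 array left out, 0 of the genes named from these lists passed the threshold, with limma adjusted p values from 0.0601 to 0.988, and with no filter on low values each list had 0 calls. Of the 21 further tested probe sets of the 29 called genes, 17 had the same sign as the brightest one, against 29 of 46 for the other 54 genes. The called genes were chosen by their difference at the brightest probe set, and probe sets of a gene share the same RNA. More agreement of sign among them can follow from that choice, so it does not test the calls.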

How the data were processed

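Total RNA of 2 pseudopodia and 2 cell body samples was read on 1 array each. The authors deposited linear intensities per probe set, with a column for each array. Per the labels, RNA carried biotin and was labelled by the standard Affymetrix procedure. Array scaling and software were not given in the sources used here, nor was the way probes were summarised. The number of arrays limits the precision. Values were taken as log2(intensity + 1) without further scaling, the 64 control probe sets were left out, and folds are antilogs of differences on that scale, which understates changes of dim genes. The filter was the median log2 mean of non-control probe sets (5.42). The comparison used limma 3.58.1 (R 4.3.3) with lmFit, then eBayes (two-sided, without covariates, 2 residual and 2.90 prior degrees of freedom), with Benjamini-Hochberg adjustment over the 11320 genes, and separately over the 22519 probe sets. A permutation of 2 against 2 arrays cannot give a p under 33.3%, so none was run. The fit was also run on simulated data. These were drawn independently for each gene and array, without a floor or effects shared between arrays, so they cannot test those. Symbols come from the platform annotation, and all 10 gene IDs matched a RefSeq gene table. Named from each related list were up to 4 called genes with the largest differences, and the brightest gene. The members and lists were chosen with earlier results of these data known. Alternatives were other pseudocounts, filters, scalings, probe set choices, variance priors, a replicate block and leaving out each array.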

Additional observations from a re-analysis of the deposited data

How the results depend on the processing

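The 3 proteoglycan calls (Sdc1, Gpc1 and Cspg4) kept their direction under every alternative run. They were lost with no filter on low values, where limma called 0 of 10 proteoglycan genes (4 at an unadjusted p under 0.05), 0 of 24 of their probe sets (10) and 2 genes in all (3844), and with any 1 array left out. Leaving out 1 array gave 0 calls among all genes, proteoglycan genes and proteoglycan probe sets, with 2792 to 2883, 3 to 4 and 9 to 12 at an unadjusted p under 0.05; the lone array of a compartment is then assumed to vary like the others. The cause was not tested. With a prior variance that follows intensity, 2564 genes were called. Among proteoglycans, signs turned only for genes that were not called. With 1 array left out, Sdc3 kept its sign at -0.62 to -0.092, while Sdc2 ran from -0.68 to 0.13, Sdc4 from -0.67 to 0.52, Hspg2 from -0.058 to 1.04 and Dcn from -0.077 to 0.057. The turned signs were Sdc2 and Sdc4 (0.52) without pseudopodia replicate 1, Hspg2 and Dcn (0.023) without pseudopodia replicate 2, Dcn without cell body replicate 1 and Sdc4 (0.14) without cell body replicate 2. Sdc4 turned to 0.016 with quantile normalization and to 0.18 without probe sets that can match several transcripts. With the mean of all probe sets of a gene, Sdc3 turned to 0.15, Sdc4 to 0.053, Hspg2 to -0.58 and Dcn to 0.19, and, among the related genes, Ext1 to 0.30, Glce to 0.15 and Fgf7 to -0.19. The alternatives for the related genes and lists were added after seeing the data; under settings that kept all arrays, 53 counts of called genes per list stayed within 1.5 times, 10 were larger and 9 smaller. Arrays that share a replicate number had deviations that correlated at 0.34 across genes, but with 2 pairs and no label saying what a number marks, they share only a number. With a replicate block 3 proteoglycan genes and 9 of their probe sets were called, among 2202 genes in all; Hspg2 had an adjusted p of 0.0772, Cask lost its call (0.0511), Cd44 and Fgf7 passed the threshold (0.0321 and 0.0300) and the heparin-binding list had 6 calls in place of 2.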
